A study of Homo sapiens with 6 samples.

Results

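The 10 genes described here, IER2, IER3, IER5, EGR1, SRF, MYC, ZFP36, ZFP36L1, ZFP36L2 and BTG1, are early genes of the growth response that lie outside the AP-1, KLF and DUSP families. They were taken by exact gene symbol from the deposited table of 60612 genes, and all 10 had enough counts to be tested. RNA was sequenced from A549, a human lung adenocarcinoma line that the labels call epithelial, 48 hours after transfection with a small interfering RNA (siRNA). The siGSE1 group (3 libraries) received an siRNA against GSE1, a gene whose product is found in histone deacetylase corepressor complexes, and the control group (3 libraries) received a negative control siRNA. Every library therefore comes from 1 transfected cell line, grown without a stated growth factor or serum stimulus. The study's title links GSE1 to KLF6, and its stated question is which genes respond to loss of GSE1. Replicates are numbered 1 to 3 with no word on whether they were grown separately, so the p-values below reflect library-to-library spread alone, possibly technical.

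Early genes are switched on by existing transcription factors when a growth factor, cytokine or stress signal reaches the nucleus, without new protein synthesis. Serum response factor (SRF) sits at the CArG box of many of their promoters, where it works with ternary complex factors phosphorylated by ERK or with myocardin-related factors released by actin assembly. EGR1 and MYC are transcription factors made in this response. The proteins of the ZFP36 family close it down: they bind AU-rich elements in the 3′ untranslated region (UTR) of short-lived mRNAs and recruit the CCR4-NOT deadenylase. BTG1 belongs to an antiproliferative family that also binds CCR4-NOT. Many of these mRNAs are themselves unstable, so a level at one time reflects both synthesis and decay.

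Promoters of 7 of the 10 genes were matched in the RefSeq promoter table (GRCh38.p14), which gives 250 bases before to 50 after each start, in 9 windows. The 3 below are shown because the SRF binding motif is present in some of these windows and absent from another, in genes of one response. A window without the motif does not show that the gene lacks it elsewhere. Capitals mark the CArG box (CC, then 6 bases of A or T, then GG), the EGR site GCGGGGGCG and TATAAA on either strand. The other motifs searched, GCGTGGGCG and the E-box CACGTG, matched none of the 9 windows.
EGR1, chr5:138465229-138465528, plus strand: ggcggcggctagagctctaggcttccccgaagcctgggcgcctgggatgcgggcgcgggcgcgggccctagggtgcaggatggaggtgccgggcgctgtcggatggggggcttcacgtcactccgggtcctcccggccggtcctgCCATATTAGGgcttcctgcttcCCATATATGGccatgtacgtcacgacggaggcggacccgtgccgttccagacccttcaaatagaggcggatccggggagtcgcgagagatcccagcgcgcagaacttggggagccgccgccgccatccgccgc
SRF, chr6:43171019-43171318, plus strand: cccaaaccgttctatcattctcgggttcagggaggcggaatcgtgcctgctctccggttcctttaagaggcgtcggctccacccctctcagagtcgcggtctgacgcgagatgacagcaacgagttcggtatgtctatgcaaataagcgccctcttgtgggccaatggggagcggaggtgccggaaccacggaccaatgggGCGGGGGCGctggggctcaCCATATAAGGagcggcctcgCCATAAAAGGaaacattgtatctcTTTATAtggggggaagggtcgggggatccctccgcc
IER2, chr19:13150161-13150460, plus strand: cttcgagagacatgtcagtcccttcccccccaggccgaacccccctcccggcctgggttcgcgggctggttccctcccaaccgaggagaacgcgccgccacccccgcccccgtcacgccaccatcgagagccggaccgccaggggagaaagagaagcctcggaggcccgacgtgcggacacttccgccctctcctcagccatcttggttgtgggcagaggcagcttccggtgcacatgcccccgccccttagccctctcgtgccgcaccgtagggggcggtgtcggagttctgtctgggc

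The EGR1 window held CArG boxes that began 105 and 83 bases before the start. In the first SRF window they began 30 and 10 bases before the start, with the EGR site 49 bases before it. TATAAA was on the opposite strand, 14 to 19 bases after the start. CArG boxes were in 1.29% of all 35116 promoters of that table, the EGR site GCGGGGGCG in 5.07%, GCGTGGGCG in 0.795%, CACGTG in 7.26% and TATAAA in 11.5%. The window of BTG1 held TATAAA 33 bases before the start. In the second ZFP36L1 window, the cyclic AMP response element TGACGTCA, a motif added after the windows had been viewed and present in 1.85% of promoters, began 52 bases before the start. The windows of IER2, IER5 and ZFP36, the second SRF window and the first ZFP36L1 window held none of these motifs. A motif match describes letters and not a bound site.

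The AU-rich element read by the ZFP36 proteins is commonly written TATTTAT in DNA letters, with ATTTA as its core. In the 3′ UTRs of GENCODE release 29 (GRCh38), read on the transcript strand, TATTTAT was present in 28.7% of 18209 UTRs of at least 50 bases, and 5.15% held 3 or more copies. The copy number was 4 in IER3, 4 in IER5, 3 each in ZFP36, ZFP36L1 and ZFP36L2, 2 in SRF and 1 in BTG1, and IER2, EGR1 and MYC had none. Of the core ATTTA alone, MYC had 4 copies, EGR1 1 and IER2 0. In that release the end of MYC lay 1517 bases from its deposited end. Length matters to such a count: among UTRs within 25% of the same length, TATTTAT was in 19.9% for IER3, 18.5% for ZFP36, 39.6% for ZFP36L1, 40.0% for ZFP36L2 and 55.2% for IER5. The windows of 25 bases below show that the mRNAs of the ZFP36 family carry the element its own proteins bind, and that IER3 carries it too. ATTTA is in capitals.
IER3: ctaattaatATTTAtatgtATTTAt
ZFP36: ctttATTTAtgacgactttATTTAt
ZFP36L1: ATTTAacttatcaaaacgtATTTAt
ZFP36L2: tatgaaaactATTTAacttATTTAt

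Library totals ran from 14475992 to 20755506 counts, and 15937 genes were tested with edgeR's quasi-likelihood test, with Benjamini-Hochberg adjustment over all of them (threshold 0.05, "called" below). GSE1 fell to 49.0% of control, by 1.03 ± 0.06 (SE) on the log2 scale. KLF6 rose by 1.06. Of 5 epithelial markers, EPCAM stood under 1 FPKM in both groups; the summed level of the 5 was 1565 to 2051 FPKM in control and 1514 to 1545 in siGSE1 libraries, and KRT8 and KRT18 fell by 0.26 and 0.25 on the log2 scale. Of 6 leukocyte markers 5 were under 1 FPKM in both groups, with sums of 3.65 to 5.86 in control and 3.31 to 4.91 in siGSE1 libraries. Of 6 fibroblast markers 5 were also under 1 FPKM, with sums of 1.25 to 1.95 and 1.97 to 2.16, and all 4 endothelial markers were, with sums of 0.10 to 0.17 and 0.04 to 0.10. The part of these shifts in the results was not tested. Control replicate 2 stood apart from the other controls: the SD of its log2 ratios to them was 0.205 and 0.210, against 0.172 between controls 1 and 3 and 0.133 to 0.145 among siGSE1 libraries.

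After siGSE1, 5 of the 10 genes were called higher (IER2, IER3, ZFP36L1, SRF and MYC), 1 was called lower (ZFP36L2) and 4 were not called (IER5, EGR1, ZFP36 and BTG1). Over all tested genes 3167 were called, or 19.9%, with 10.9% called higher and 9.02% lower. That share includes genes of low count, and the 10 were chosen with earlier results of these data known. A fit limited to the 10967 genes with at least 100 counts in every library of either group called a larger share, 1659 higher and 1490 lower. Scaling each library to its sum of count over exonic length (TPM scaling) instead of TMM changed that split over all genes from 1730 higher and 1437 lower to 2544 and 929. In FPKM (reads scaled to exonic length and library total), the control and siGSE1 libraries did not overlap for 6 of the 10 genes, against 36.1% of all tested genes. The median log2 fold change of the 10 was 0.20, beside 0.00 over all genes tested. These are bulk RNA levels, in which a change in the number of expressing cells and a change per cell cannot be told apart.

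**Figure D1:**
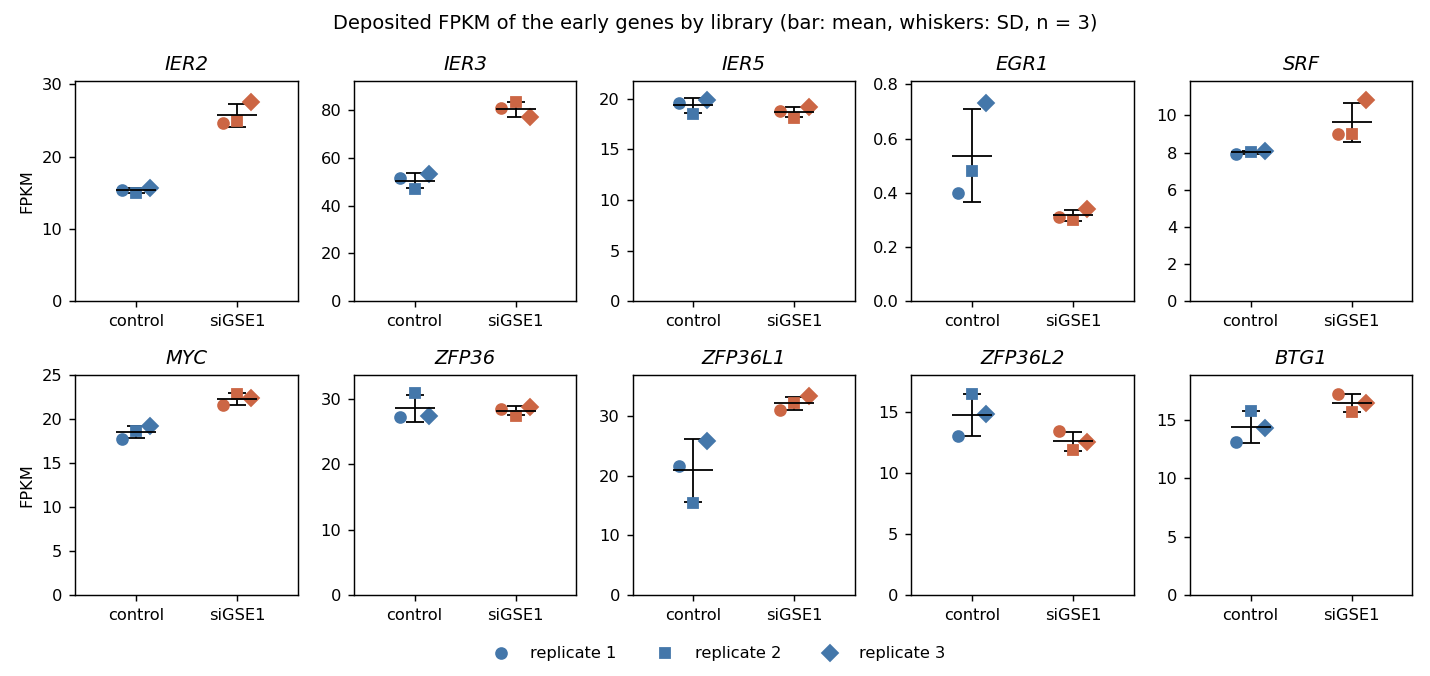
Deposited FPKM (vertical axes, each from 0) of the 10 genes in the 3 control and 3 siGSE1 libraries; symbols mark the replicate number, bars the mean and whiskers the SD. The siGSE1 libraries lie above all controls for IER2, IER3, SRF, MYC and ZFP36L1 and below them for EGR1.

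The IER genes split. IER2, a nuclear protein of the early response, rose 1.65-fold and IER3, a short-lived stress-inducible protein that bears on apoptosis and ERK signalling, rose 1.56-fold, while IER5, which acts with the phosphatase PP2A on heat shock factor HSF1, was not called.

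IER2 (ENSG00000160888, chr19:13150411-13154911, plus strand, hg38) had a single exon in its transcript IER2-203. It stood at 15.43, 14.99 and 15.64 FPKM in control replicates 1 to 3 and at 24.67, 24.90 and 27.58 in siGSE1. The groups were far apart relative to their spread, 15.4 ± 0.33 against 25.7 ± 1.62 FPKM (SD, n = 3 each). Its log2 fold change was 0.72 ± 0.06 (SE; 95% interval 0.59 to 0.86; edgeR adjusted p = 1.44e-06), and it stayed called in all 18 alternative analyses. Among the 10 genes it had the largest rise in the main fit.

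IER3 (ENSG00000137331, 2 exons at chr6:30743199-30744548, minus strand) was the most abundant of the 10 in both groups. It stood at 51.36, 47.07 and 53.06 FPKM in control and at 80.70, 83.21 and 76.88 in siGSE1 libraries. All siGSE1 libraries lay above all controls. The log2 fold change was 0.65 ± 0.06 (95% interval 0.52 to 0.77; edgeR adjusted p = 2.54e-06), and all 18 alternatives called it. Leaving out any 1 library gave 0.60 to 0.67.

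IER5 (ENSG00000162783, a single exon at chr1:181088700-181092900, plus strand) gave 19.58, 18.52 and 19.86 FPKM in control and 18.77, 18.13 and 19.16 in siGSE1. The groups overlapped. Its log2 fold change of -0.07 ± 0.06 had a 95% interval of -0.19 to 0.05 (edgeR adjusted p = 0.422), which leaves out any rise of the size seen in IER2 or IER3. None of the 18 alternatives called it.

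Ratios within each library show the same divergence without a library scaling. IER2 over IER5, in FPKM, was 0.788, 0.809 and 0.788 in control and 1.31, 1.37 and 1.44 in siGSE1 libraries, a log2 difference of 0.79. IER3 over IER5 was 2.62, 2.54 and 2.67 against 4.30, 4.59 and 4.01, a log2 difference of 0.72. Neither ratio overlapped between groups, and each had the smallest exact two-sided permutation p that 3 against 3 allows, 0.1 (0.12 after adjustment over the 6 ratios compared). IER2 over IER3 overlapped, with a difference of 0.07 (exact permutation p = 0.6). The summed level of the 3 IER genes was 85.2 ± 4.12 FPKM in control and 125 ± 1.39 in siGSE1 (SD, n = 3 each), of which IER3 made up 59.3% and 64.4% on average.

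EGR1, the zinc finger factor made at high level within minutes of serum stimulation, was the scarcest of the 10. EGR1 (ENSG00000120738, 2 exons at chr5:138465479-138469303, plus strand) had 26, 31 and 33 counts in control and 17, 18 and 21 in siGSE1 libraries. In FPKM these were 0.40, 0.48 and 0.73 against 0.31, 0.30 and 0.34. The FPKM groups did not overlap, though with so few counts the exact 95% Poisson intervals did: 17.0 to 38.1 counts for control replicate 1 and 13.0 to 32.1 for siGSE1 replicate 3. The intervals cover counting error only. The log2 fold change was -0.76 ± 0.34 (95% interval -1.49 to -0.04) with an unadjusted edgeR p of 0.0399 and an adjusted p of 0.131, and none of the 14 alternatives that gave a value called it. It ranged from -0.93 without control replicate 1 to -0.52 without control replicate 3.

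SRF (ENSG00000112658, 7 exons at chr6:43171269-43181506, plus strand), the factor that binds the CArG boxes shown above, gave 7.91, 8.02 and 8.10 FPKM in control. The siGSE1 libraries gave 9.02, 9.01 and 10.82. All 3 lay above the controls, and replicate 3 lay well above the other 2. SRF rose by 0.24 ± 0.08 on the log2 scale, 1.18-fold (95% interval 0.07 to 0.41; edgeR adjusted p = 0.0444). This call was marginal: 8 of 18 alternatives kept it, and without siGSE1 replicate 3 the log2 fold change was 0.15 with an adjusted p of 0.243.

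MYC (ENSG00000136997, 3 exons at chr8:127735434-127742951, plus strand), the basic helix-loop-helix factor of growth and ribosome synthesis, rose 1.18-fold. Its FPKM were 17.78, 18.67 and 19.18 in control and 21.55, 22.86 and 22.37 in siGSE1 libraries. The rise was small, but every siGSE1 library lay above every control. The log2 fold change was 0.24 ± 0.05 (95% interval 0.12 to 0.36; edgeR adjusted p = 0.00524). All 18 alternatives called it, and leaving out 1 library gave 0.22 to 0.26. MYC and SRF thus had the same fold change to 2 decimals, with calls that differed in how often the alternatives kept them.

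**Figure D2:**
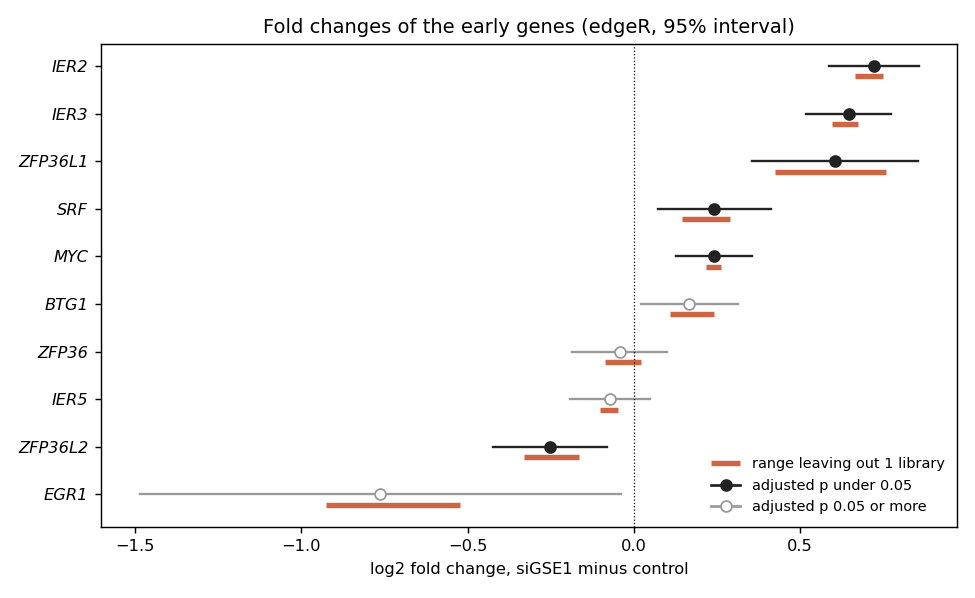
Log2 fold changes, siGSE1 minus control, of the 10 genes with 95% intervals (horizontal axis); filled points passed adjusted p under 0.05 and the thick lines give the range when 1 library is left out. IER2, IER3 and ZFP36L1 lie between 0.61 and 0.72, SRF and MYC at 0.24, and ZFP36L2 at -0.25.

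The 3 ZFP36 paralogs, which bind the same element, went separate ways: ZFP36L1 rose 1.52-fold, ZFP36L2 fell to 83.9% of control and ZFP36 was not called. ZFP36 (tristetraprolin; ENSG00000128016, 2 exons at chr19:39406847-39409412, plus strand) gave 27.22, 30.94 and 27.41 FPKM in control and 28.39, 27.39 and 28.79 in siGSE1. The groups overlapped, and the log2 fold change of -0.04 ± 0.07 had a 95% interval of -0.18 to 0.10 (edgeR adjusted p = 0.708). It was 0.02 without control replicate 2, the highest of the controls, and 0.02 with TPM scaling.

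ZFP36L1 (ENSG00000185650, 2 exons at chr14:68787660-68796253, minus strand) gave 21.56, 15.35 and 25.73 FPKM in control and 31.08, 32.14 and 33.26 in siGSE1 libraries. The controls were spread widely, with replicate 2 lowest, and all lay below the siGSE1 libraries. The log2 fold change was 0.61 ± 0.12 (95% interval 0.36 to 0.85; edgeR adjusted p = 0.00181). Without control replicate 2 it was 0.42 and still called, and without control replicate 3 it was 0.76. The call was lost in 1 of 18 alternatives, a robust estimate of the dispersion prior (adjusted p = 0.125).

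ZFP36L2 (ENSG00000152518, 2 exons at chr2:43222402-43226606, minus strand) gave 13.02, 16.44 and 14.80 FPKM in control and 13.40, 11.89 and 12.50 in siGSE1 libraries. Control replicate 1 lay below siGSE1 replicate 1, so the groups overlapped. ZFP36L2 fell by 0.25 ± 0.08 on the log2 scale (95% interval -0.42 to -0.08; edgeR adjusted p = 0.0366). Only 8 of 18 alternatives kept the call, and without control replicate 2 the log2 fold change was -0.16 (adjusted p = 0.117).

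ZFP36L1 made up more of the family in each siGSE1 library than in any control. ZFP36L1 over ZFP36L2, in FPKM, was 1.66, 0.934 and 1.74 in control and 2.32, 2.70 and 2.66 in siGSE1 libraries, a log2 difference of 0.88. ZFP36L1 over ZFP36 was 0.792, 0.496 and 0.939 against 1.09, 1.17 and 1.16, a log2 difference of 0.67. In deposited FPKM ZFP36 thus exceeded ZFP36L1 in every control and in no siGSE1 library. ZFP36 over ZFP36L2 differed by 0.21. None of these ratios overlapped between groups (exact two-sided permutation p = 0.1, the smallest possible, and 0.12 after adjustment over the 6 ratios). Control replicate 2 was the lowest library in both ratios with ZFP36L1. The summed family level was 64.2 ± 3.31 FPKM in control and 72.9 ± 1.57 in siGSE1, with ZFP36L1 making up 32.4 ± 7.04% and 44.1 ± 1.26% of it (SD, n = 3 each). Which gene exceeds the other, the sums and the percentages depend on the exonic lengths used, 5160 bases for ZFP36L1 and 1976 for ZFP36. Their GENCODE transcripts had 3190 and 1699 bases. By those lengths and the same counts, ZFP36L1 would already exceed ZFP36 in control replicates 1 and 3, though not in control replicate 2. The log2 differences of the ratios between groups do not depend on length.

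**Figure D3:**
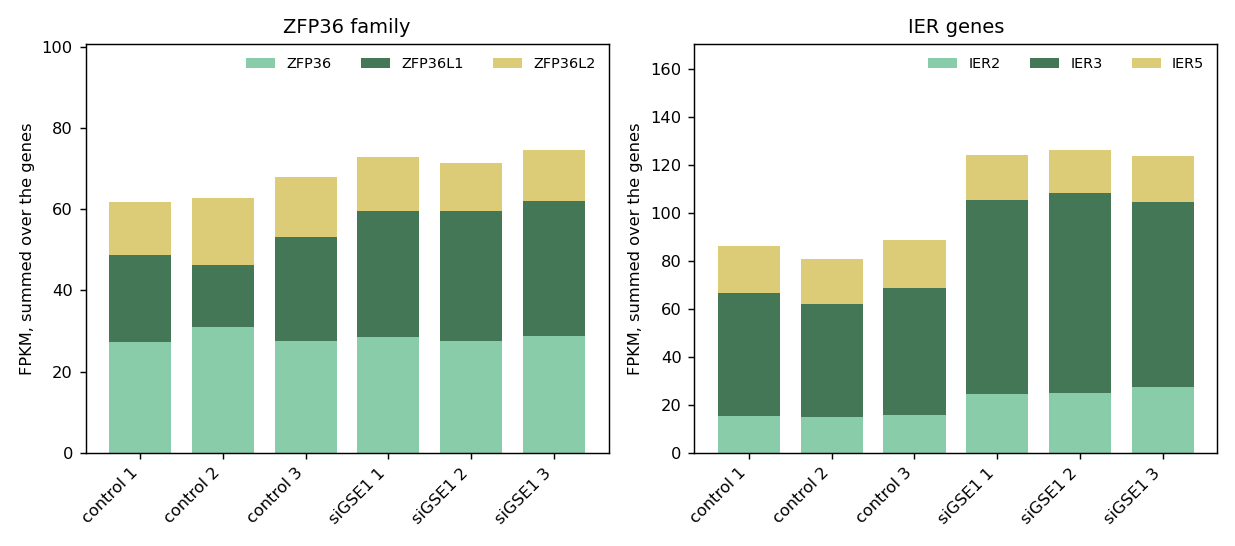
FPKM summed over ZFP36, ZFP36L1 and ZFP36L2 (left) and over IER2, IER3 and IER5 (right) in each library, with both vertical axes from 0. The ZFP36L1 segment is taller in each siGSE1 library than in any control, and the IER sum goes from 85.2 to 125 FPKM on average while the IER5 segment stays between 18.13 and 19.86.

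BTG1 (ENSG00000133639, 2 exons at chr12:92140278-92145846, minus strand) gave 13.11, 15.80 and 14.33 FPKM in control and 17.26, 15.70 and 16.43 in siGSE1 libraries. Control replicate 2 lay just above siGSE1 replicate 2, the 1 overlap between the groups. The log2 fold change was 0.17 ± 0.07 (95% interval 0.02 to 0.31; edgeR adjusted p = 0.102), and 2 of 18 alternatives called it, 1 of them the fit without control replicate 2 (adjusted p = 0.00534).

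The order of FPKM levels differed among the middle ranks. In control cells it ran IER3, ZFP36, ZFP36L1, IER5, MYC, IER2, ZFP36L2, BTG1, SRF and EGR1, and libraries of neighbours overlapped for ZFP36L1 and IER5, IER5 and MYC, IER2 and ZFP36L2, and ZFP36L2 and BTG1. In siGSE1 cells it ran IER3, ZFP36L1, ZFP36, IER2, MYC, IER5, BTG1, ZFP36L2, SRF and EGR1, with overlap of neighbours only between ZFP36 and IER2. In deposited FPKM IER2 thus stood below IER5 and MYC in control cells and above them in siGSE1 cells. The order between genes depends on the exonic length used, 4584 bases for MYC and 3079 for IER2. Their GENCODE transcripts read above had 2366 and 2934 bases. MYC had more counts than IER2 in every library, so by those lengths IER2 would stand below MYC in both groups. The rest of the order with such lengths was not tested.

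Set beside the calls, the motifs are a description, and no link between them was tested. Of the genes that carry TATTTAT, IER3, ZFP36L1 and SRF were called higher and ZFP36L2 lower. IER5, ZFP36 and BTG1, which also carry it, were not called. IER2 and MYC, with none in the UTRs read, were called higher, and EGR1, also with none there, was not called. For MYC only a UTR of 476 bases was searched, and its gene end differed by 1517 bases from the deposited end. MYC does hold 4 copies of the core ATTTA, and IER2 holds 0. CArG boxes were found in the promoters of EGR1, which was not called, and SRF, which rose 1.18-fold. The IER2 promoter shown above, with none, belongs to a gene that rose 1.65-fold. IER3, MYC and ZFP36L2, all called, had no matched promoter window and were not searched.

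Genes whose annotated span overlaps one of the 10 can share reads with it, on the opposite strand only if counting ignored strand. The use of strand is not stated in the labels or file headers. Such genes lay over 5 of the 10, namely IER2, IER3, MYC, ZFP36L2 and BTG1, and had at most 14 counts in any library. They were AC011446.2 and AC011446.3 at IER2, HCG20 and IER3-AS1 at IER3, CASC11 at MYC, AC010883.3 at ZFP36L2, and AC025164.1 and, on the same strand, LINC01619 at BTG1. Outside EGR1, the lowest count of any of the 10 in a library was 496. The longest overlaps were of CASC11 with MYC, 3554 bases, and of LINC01619 with BTG1, 2637 bases. No label or header says how shared reads were counted, so the low counts do not show that the 10 genes kept all their reads.

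Among genes of mean FPKM of at least 5, those whose log2 CPM followed IER2 most closely over the 6 libraries were SUN2 and APH1A (Pearson r = 0.999 each) and PGAP6 (r = 0.998). For MYC they were PHF20 (r = 0.999), FOXK2 (r = 0.996) and EAF1 (r = 0.995). For EGR1 they were RFFL (r = 0.995), CLIP4 (r = 0.994) and PISD (r = 0.991). With 6 libraries in 2 groups such values are common: 397 of 6932 genes had r over 0.95 with IER2, 214 with MYC and 34 with EGR1.

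Around the 10 genes, 11 lists of 206 genes in all were read from the same fit, of which 196 were tested. Of these 49 were called higher and 28 lower, or 39.3% called, beside 19.9% of all genes. The latter share includes genes of low count. With at least 100 counts in every library of either group it was larger, 1659 higher and 1490 lower of 10967. The lists hold genes known to act with the 10 and were chosen with earlier results of these data known. They therefore describe the setting and do not test it.

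Of 9 tested family relatives and corepressors, 2 were called higher and 1 lower (median log2 fold change 0.16). MYCN, the MYC paralog of neural tissue, rose by 1.50 ± 0.44 (edgeR adjusted p = 0.0252) from a low level, 0.213 to 0.640 FPKM on average. Its counts were 9, 21 and 3 in control and 22, 34 and 40 in siGSE1 libraries. The log2 fold change was 2.26 without control replicate 2 and 1.16 without control replicate 3, and the call was lost without control replicate 1 or 3 or siGSE1 replicate 2 or 3 (edgeR adjusted p up to 0.122). NAB1, a corepressor of EGR proteins, rose by 0.20, and TOB1, a relative of BTG1, fell by 0.15. Without siGSE1 replicate 3 none of the 3 was called, and with TPM scaling 5 were higher and 0 lower. EGR2, EGR3 and EGR4 had too few counts to be tested.

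Of 20 other early response genes, 10 were called higher, 1 was called lower and 9 were not called (median 0.21). RHOB, a small GTPase of the actin cytoskeleton, rose from 31.9 ± 1.31 to 65.0 ± 2.49 FPKM (log2 fold change 1.01, edgeR adjusted p = 1.30e-08). CCN1, a secreted matricellular protein, rose by 0.58, or 0.45 without control replicate 2, CSRNP1, a nuclear factor, by 0.49 and BHLHE40, a repressor of the circadian clock, by 0.47. The 1 call lower was lost without control replicate 1 or any 1 siGSE1 library and became 2 without control replicate 2, and 7 to 9 genes were called higher with 1 library left out.

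On the input side of SRF, 5 of 23 tested cofactors and ERK cascade genes were called higher and 1 lower (median 0.04). That was 26.1% called, beside 19.9% of all genes. MRTFA, the actin-regulated SRF coactivator, rose from 8.74 ± 0.40 to 12.3 ± 0.34 FPKM (log2 fold change 0.47, edgeR adjusted p = 2.92e-05). RPS6KA4, the kinase MSK2, rose by 0.48, ELK3, a ternary complex factor, by 0.26 and SOS1, an exchange factor for RAS, by 0.25. The split was 9 and 0 with TPM scaling, 6 and 4 without control replicate 2 and 2 and 1 without siGSE1 replicate 2.

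On its output side, 12 of 23 cytoskeletal target genes of SRF were called higher and 0 lower (median 0.22). TPM4, a tropomyosin, rose from 17.3 ± 1.81 to 43.5 ± 1.18 FPKM (log2 fold change 1.31, edgeR adjusted p = 5.11e-09). ACTB, cytoplasmic actin, rose by 0.36 and WDR1, an actin disassembly factor, by 0.28. TPM1 rose by 0.77. Control replicate 2 was its lowest library (15.92 FPKM), and without it the log2 fold change was 0.57 and still called. A robust estimate of the dispersion prior ended the TPM1 call (edgeR adjusted p = 0.0876). With 1 library left out 8 to 15 were called higher, and edgeR at an unadjusted p under 0.05 and DESeq2 also gave 0 lower. ACTB and its near-identical paralog ACTG1 may share reads, so its value is uncertain.

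EGR1 target genes moved both ways, with 2 of 12 called higher and 2 lower (median 0.06). THBS1, a matricellular protein, rose by 0.79 and TGFB1, a growth factor, by 0.27, while GDF15, a stress-induced cytokine, fell by 0.70 and ICAM1, an adhesion receptor, fell by 0.92. TGFB1 overlaps HNRNPUL1 and its value is uncertain for that reason.

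Genes around MYC moved both ways. Of 14 partners and turnover factors, 2 were called higher and 0 lower (median 0.06). That was 14.3% called, below the 19.9% of all genes. SKP2, a ubiquitin ligase subunit, rose by 0.42 and ZBTB17, the MYC partner MIZ1, by 0.33. Without siGSE1 replicate 1 or 3 the count was 1. DESeq2 also called 0 lower, and 3 had an unadjusted edgeR p under 0.05. Of 31 genes known as activated by MYC, 3 were called higher and 11 lower (median -0.15). NOLC1, a nucleolar phosphoprotein, rose from 28.4 ± 2.30 to 48.7 ± 0.51 FPKM (log2 fold change 0.75, edgeR adjusted p = 6.34e-07), while FBL, the nucleolar methyltransferase fibrillarin, fell by 0.31 and RRP12, a ribosome assembly factor, fell by 0.42. EIF4A1, a translation initiation helicase, had a log2 fold change of 0.72 but shares exons with a readthrough gene, so its value is uncertain. The lower count was 6 without siGSE1 replicate 2 or 3, and the split was 5 and 7 with TPM scaling. Of 7 genes known as repressed by MYC, 0 were called higher and 3 lower (median -0.38). CDKN1A, the cell cycle inhibitor p21, fell by 0.61, NDRG1, a stress-response protein, fell by 0.38, and TXNIP, an inhibitor of thioredoxin, fell by 0.66 with FPKM groups that overlapped. The TXNIP log2 fold change was -0.48 without control replicate 2, and its call was lost without siGSE1 replicate 3 (edgeR adjusted p = 0.102). edgeR at an unadjusted p under 0.05 and DESeq2 also gave 0 higher.

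Transcripts known for AU-rich elements went in both directions, with 8 of 22 called higher and 4 lower (median 0.17). CXCL1, a neutrophil chemokine, rose from 42.7 ± 10.7 to 83.2 ± 3.18 FPKM (log2 fold change 0.94, edgeR adjusted p = 4.26e-05), and NFKBIZ, a nuclear cofactor of NF-κB whose span overlaps NXPE3 on the same strand, rose by 0.75. CCND1, cyclin D1, fell from 111 ± 11.8 to 60.3 ± 0.88 FPKM (log2 fold change -0.90), as did CDKN1A above. CXCL1 resembles CXCL2 and CXCL3 in sequence, and no label or header says how shared reads were counted.

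Of 17 readers of the element and p38 kinases, 3 were called higher and 1 lower (median 0.11). That was 23.5% called, beside 19.9% of all genes. ZC3H12A, an endonuclease of inflammatory mRNAs, rose by 0.36, the 14-3-3 proteins YWHAZ and YWHAB by 0.26 and 0.15, and MAP2K6, an activator of p38, fell by 0.36. The split was 7 and 1 with TPM scaling, 6 and 1 with library totals and 5 and 2 without control replicate 2. Of 24 genes of deadenylation and decay, 3 were called higher and 5 lower (median -0.03). The CCR4-NOT subunits CNOT11 and CNOT1 fell by 0.37 and 0.24, and of the decapping proteins DCP2 rose by 0.33 while DCP1A, which overlaps CACNA1D, fell by 0.37. Leaving out siGSE1 replicate 1, 2 or 3 gave splits of 1 and 3, 2 and 1, and 1 and 3, and quantile normalized limma gave 0 and 4.

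**Figure D4:**
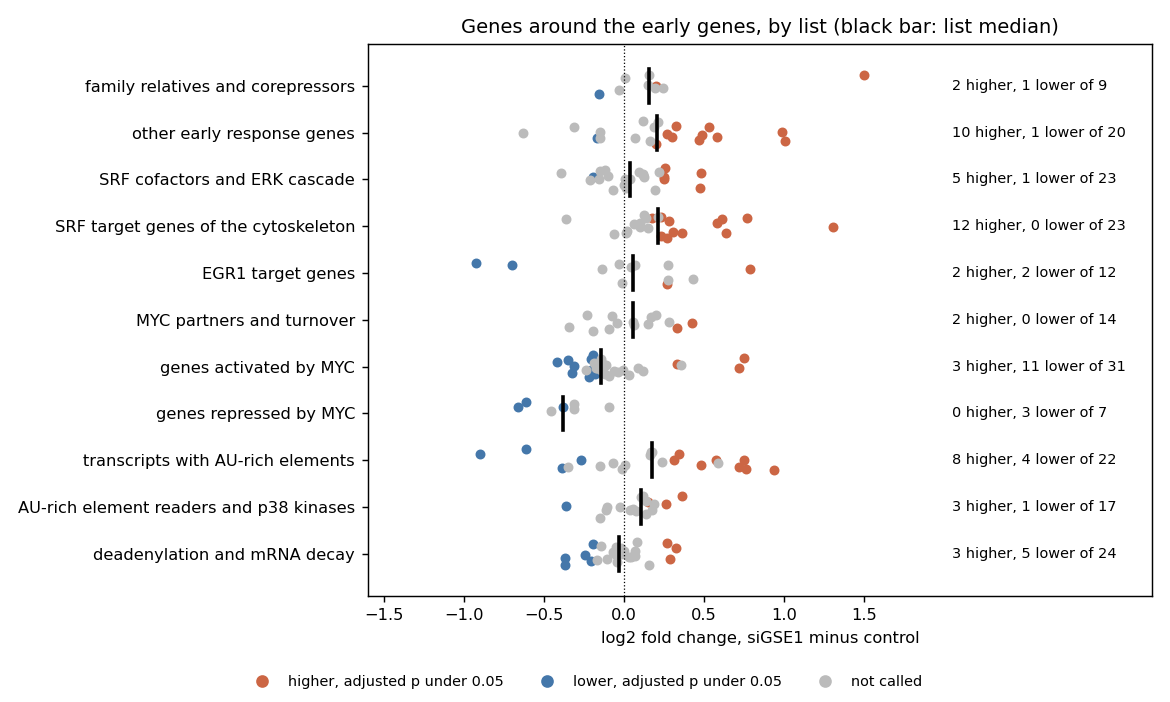
Log2 fold changes, siGSE1 minus control (horizontal axis), of the tested genes of the 11 lists, 1 point a gene, coloured by call, with the list's median as a black bar. The cytoskeletal SRF targets have 12 points called higher and 0 lower, and the genes activated by MYC have 3 and 11.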

How the data were processed

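The 6 libraries and their groups follow the sample titles. The authors deposited whole-number counts per gene without normalization, and per the file headers FPKM beside them. Within a tolerance of 0.0051 each FPKM equals count over exonic length and library total. Among tools in the submitters' processing notes are HISAT2, HTSeq, edgeR and StringTie 1.3.3b, with the hg38 build; the series text names STAR and DESeq2 instead.

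Counts were filtered with filterByExpr (minimum count 10, minimum total 15), scaled by TMM and tested with edgeR 4.0.16 (R 4.3.3) by group alone. Standard errors are the absolute log2 fold change over the square root of F. The biological coefficient of variation was 7.00%. Fold changes are scaled by TMM, FPKM are as deposited. Permutation tests are exact and two-sided. On simulated counts for 15937 genes, the test recovered 62.0% of changes of 0.5 and 82.0% of changes of 1 on the log2 scale. Alternatives used DESeq2 1.42.0, limma 3.58.1 on log2(FPKM + 1) or + 0.1, other scalings and filters, a replicate block, and each library left out.

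The members and lists were chosen with earlier results of these data known. Named are the 10 members, GSE1 and KLF6, up to 4 called genes of smallest adjusted p per list, the 3 genes most like IER2, EGR1 and MYC, and genes overlapping a member; the 3′ UTR counts and TGACGTCA were added after values were seen. Protein sequences were not used here. Gene structures come from GENCODE release 29. Exon counts are of a single protein-coding transcript per gene, that with the longest coding sequence, and not of the whole span.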

Additional observations from a re-analysis of the deposited data

How the results depend on the processing

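Refits were followed for 51 named genes, which were the 10 early genes, GSE1, KLF6 and those named from the lists. Those from the lists had been picked as called genes of smallest adjusted p in the main fit, which favours keeping the call. The genes most like IER2, EGR1 and MYC and those overlapping a member were left out. Of 909 refitted fold changes of the 51, 838 kept their direction and their side of the threshold, 67 kept the direction and lost the call, 2 gained a call and 2 changed sign. Both sign changes were of ZFP36, to 0.0191 with TPM scaling and 0.0199 without control replicate 2, neither called; leaving out 1 library gave -0.0861 to 0.0199. With 1 library left out, 1863 to 3562 genes were called over the whole table (lowest without siGSE1 replicate 3), 1049 to 1914 higher and 814 to 1648 lower, 4 to 6 of the 10 early genes (4 to 6 higher, 0 to 1 lower) and 52 to 86 listed genes (36 to 53 higher, 16 to 33 lower). Higher calls over all genes were 1112 with quantile normalized limma. Lower calls were 929 with TPM scaling and 878 and 881 with limma at pseudocounts 1 and 0.1, and lower calls among listed genes 18 with the first of these. ZFP36L2, the 1 lower call among the early genes, was lost (0 lower) with library totals, TPM scaling, limma in 3 forms and the replicate block.

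Same-numbered libraries did not deviate together (correlations of -0.0185 to 0.0200), so the numbers were not taken to pair them. With the replicate number as a block 3097 genes were called, 1715 higher and 1382 lower, among them 5 of the 10 early genes, and ZFP36L2 had an adjusted p of 0.0524. The cause of these changes was not tested. EGR1 had 17 to 33 counts a library, and its 95% interval ran from -1.49 to -0.04.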
